A study of Mus musculus with 96 samples.

Results

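The regions described here are promoters and other sites of mouse embryonic stem cells (ESCs) that carried 3 marks of activity and no RING1B. They were selected on the peak lists of floxed Rybp+/+ ESCs and of shEV ESCs. An H3K4me3 peak of the Rybp+/+ list was taken when it overlapped by at least 1 bp an H3K27ac peak and a WDR5 peak of Rybp+/+ cells and no peak of the shEV RING1B list. Of 39050 H3K4me3 peaks, 20536 overlapped H3K27ac, 8956 of those overlapped WDR5 too, and 3119 (7.99%) of these held no RING1B peak. The other 5837 active WDR5-bound peaks overlapped RING1B and served as the main comparison class. A further 10033 peaks had H3K27ac without WDR5 or RING1B. Presence of the 4 proteins or marks in these lists is therefore the choice itself and is given as a description.

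H3K4me3 marks the start sites of transcribed and CpG-rich genes, and H3K27ac marks active promoters and enhancers. WDR5 is a shared core subunit of the Trithorax-group H3K4 methyltransferase complexes (the COMPASS or MLL/SET1 family), and it also docks other factors such as MYC on chromatin. RING1B (the product of Rnf2) is the ubiquitin ligase of Polycomb repressive complex PRC1, and RYBP is a subunit of the variant PRC1 complexes that lack CBX proteins. In ESCs, PRC1 is best known from developmental genes held silent, whereas housekeeping promoters are the textbook example of active promoters with little Polycomb.

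The peak lists came from 3 kinds of cells. Rybp+/+ and Rybp-/- were the R7.15 line of floxed ESCs, without or with 5 µM 4-hydroxytamoxifen for 4 days, and H3K4me3, H3K27ac and WDR5 were each called on 2 merged replicates, while STAT3 was 1 library per genotype. RING1B of shEV (empty vector) and shStat3 cells was 1 library each in R1 ESCs. Tet.Rybp.Stat3 cells were R1 ESCs with an integrated doxycycline-inducible Rybp and Stat3 construct, and their RING1B and STAT3 lists without (DOX-) and with doxycycline (DOX+) were called on merged replicates. Because each list stands for 1 merged or single sample, intervals on shares of regions (95%, Wilson or Newcombe) cover counting error only, and no test between genotypes was possible. RNA was counted in 2 libraries a group for 7 comparisons: Rybp-/- against Rybp+/+ (R7.15), shRybp and shWdr5 against shEV (R1, knockdown by short hairpins, the same shEV samples in both), TF-AA mutation against WT ESC (R1), RYBP phase disruption (a 21-residue deletion of RYBP) against WT.RYBP, both overexpressed in 4-hydroxytamoxifen-treated floxed ESCs of R7.15, Tet.RYBP with doxycycline against vehicle (J1 ESCs), and rTRS with doxycycline (DOX) against NTC, whose genotype label names the same induced Rybp and Stat3 construct. Loss of RYBP was thus an acute deletion in 1 line and a partial knockdown in another. Nothing in the labels says that the 2 libraries of a group came from separate cultures, so p-values measure the spread between these libraries.

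Libraries held 14512857 to 81049618 counts on genes. Rybp, which is not among the genes of these regions, had 110 and 110 CPM (counts scaled to a common library total) in Rybp+/+ and 24.8 and 25 in Rybp-/-, and 85.7 and 86.4 in shEV against 35.8 and 36.6 in shRybp. Wdr5 had 350 and 343 CPM in shEV and 60 and 58.2 in shWdr5. Rybp had 135 and 145 CPM with vehicle and 522 and 535 with doxycycline in Tet.RYBP, but 113 and 110 in rTRS NTC and 102 and 99.8 in rTRS DOX, so the induction named by that label was not seen in the Rybp counts, while Stat3, also named by it, had 159 and 172 CPM in rTRS NTC and 191 and 188 in rTRS DOX (log2 fold change 0.20, edgeR adjusted p = 0.026). Summed ESC markers were high in all libraries (2883 to 6845 CPM, 7 of 8 markers tested). Embryonic fibroblast markers (7 of 7 tested) summed to 56.5 to 57.2 CPM in Rybp+/+ and 114 to 120 in Rybp-/-, and two-cell-like markers (3 of 5 tested) to 0.0994 to 0.191 and 35; no gene of either list starts in the regions, and the part of such cells in the results was not tested.

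DNA sequences under the WDR5 summits show the kinds of promoter in this set. Each is read from the + strand of mm9, from the 200 bp centred on the summit or the longest stretch of it outside annotated exons, and capitals mark the letters of 9 searched motifs on either strand: CCAAT (the NFY box), CCGGAAG (ETS), GGGCGGG (SP/KLF), AAGATGGC (YY1), GCATGCGC (NRF1), CACGTG (E-box), TGACGTCA (CRE), TATAAA (a core promoter box) and TTCNNNGAA (STAT). No motif contains another, but matches of different motifs may overlap. Shown first, because they are among the strongest WDR5 sites of the set, are stretches at 3 ribosomal protein genes, each with the summit in an intron of the gene: Rps3a (chr3:85946309-85946429), Rpl13 (chr8:125626367-125626550) and Rpl32 (chr6:115758523-115758715).
Rps3a: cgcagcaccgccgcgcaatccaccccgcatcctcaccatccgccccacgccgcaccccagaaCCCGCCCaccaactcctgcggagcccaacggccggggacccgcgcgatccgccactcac
Rpl13: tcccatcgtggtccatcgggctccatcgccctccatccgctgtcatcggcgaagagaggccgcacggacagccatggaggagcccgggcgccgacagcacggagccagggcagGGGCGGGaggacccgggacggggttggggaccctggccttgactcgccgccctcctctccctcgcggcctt
Rpl32: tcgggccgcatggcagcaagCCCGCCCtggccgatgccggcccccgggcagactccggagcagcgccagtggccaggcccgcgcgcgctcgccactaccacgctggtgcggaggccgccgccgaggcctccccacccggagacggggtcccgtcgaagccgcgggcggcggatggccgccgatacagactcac
For contrast, the ribosomal protein gene with the weakest WDR5 signal in the set was Rpl4, which starts in the same region as Zwilch. The window shown under its name (chr9:64020414-64020613) has the summit in an intron of Zwilch.
Rpl4: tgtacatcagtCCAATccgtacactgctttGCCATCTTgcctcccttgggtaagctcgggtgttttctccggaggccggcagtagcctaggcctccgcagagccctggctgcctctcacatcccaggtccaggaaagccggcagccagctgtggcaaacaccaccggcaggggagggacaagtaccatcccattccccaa
Flad1 (chr3:89215813-89216012, outside genes) and a pair of sites away from start sites carried several CCAAT boxes. The first site is in an intron of Igf1r (chr7:75273927-75274126), 18305 bp from the nearest protein-coding start site, and the second lies outside genes 13684 bp from the start of Dennd4b (chr3:90096917-90097116).
Flad1: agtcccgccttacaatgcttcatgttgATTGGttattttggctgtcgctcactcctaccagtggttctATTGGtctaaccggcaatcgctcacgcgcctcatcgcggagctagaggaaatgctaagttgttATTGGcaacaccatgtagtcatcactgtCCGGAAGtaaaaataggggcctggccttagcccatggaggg
Igf1r intron: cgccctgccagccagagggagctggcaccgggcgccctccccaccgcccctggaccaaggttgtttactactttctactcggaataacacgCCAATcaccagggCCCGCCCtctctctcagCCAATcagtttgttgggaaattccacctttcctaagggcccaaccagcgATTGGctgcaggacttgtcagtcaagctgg
near Dennd4b: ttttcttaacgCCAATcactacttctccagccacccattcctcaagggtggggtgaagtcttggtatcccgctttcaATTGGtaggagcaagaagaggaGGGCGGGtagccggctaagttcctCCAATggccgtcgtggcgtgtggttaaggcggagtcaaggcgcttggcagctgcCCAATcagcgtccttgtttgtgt
The 3 ribosomal stretches are rich in G and C and held 1 SP/KLF match and no CCAAT each, whereas the Flad1 and Igf1r windows held 3 CCAAT boxes and the Dennd4b window 4.

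The 3119 regions were long and strongly marked. Their H3K4me3 peaks had a median width of 2591 bp (10th to 90th percentile 1449 to 4491) and a median fold enrichment over input of 37.3, as the peak caller gave it. The median was 17.2 for H3K27ac and 5.57 for WDR5, with a 90th percentile of 16.4 and a maximum of 64 for WDR5. WDR5 lay in a single narrow peak in 2994 regions (96%), and the median WDR5 peak of the list was 590 bp wide. WDR5 strength was similar in the class with RING1B (median 5.68), whose H3K4me3 was wider (2930 bp) and stronger (41.6) and whose H3K27ac was weaker (13.6). At the borders of the rule, the smallest overlap with WDR5 was 13 bp and the nearest shEV RING1B peak was 10 bp away, while a peak left out overlapped RING1B by 43 bp and another missed WDR5 by 9 bp. The median distance to an shEV RING1B peak was 30.1 kb.

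Most regions were promoters. A transcription start site (TSS) of an annotated gene lay inside 2668 of them (85.5%, 84.3 to 86.7), and 2607 held the TSS of a protein-coding gene. Protein-coding genes started on both strands in 375 of these (14.4%). In the 2607, the WDR5 summit sat a median of -4 bp from the nearest such TSS (negative is upstream), and 90.6% of the summits were within 250 bp of it. In the class with RING1B, 80.6% were that close and the quartiles of the summit position were -70 and 127 bp, against -66 and 65 bp here. Only 350 regions lay more than 2.5 kb from any TSS. With H3K27ac peaks stitched within 12.5 kb into super-enhancers (SEs, ranked by summed signal), 1019 regions (32.7%, 31 to 34.3) fell inside an SE, between the shares of the class with RING1B (21.9%) and of active peaks without WDR5 (42.8%).

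The base composition at the WDR5 summit differed between the classes. The median GC content of the 200-bp windows was 64% here and 70.5% in the class with RING1B, and 78.1% against 92.3% of the windows reached a CpG observed-to-expected ratio of 0.6. CCAAT was found in 40.2% (38.5 to 41.9) of the windows here, in 27.5% (26.3 to 28.6) with RING1B, in 30.5% at all 11965 WDR5 summits and in 23.7% of the windows at all protein-coding TSSs. The ETS letters were in 20.6%, against 12.9% with RING1B, 12.7% at all WDR5 summits and 8.26% at TSSs. GGGCGGG went the other way, with 38.1% here, 46.5% with RING1B, 40.9% at all WDR5 summits and 22.7% at TSSs. YY1 letters were in 4.62% (2.28% with RING1B, 2.97% at TSSs) and the STAT letters in 4.55% (2.33% and 4.75%). The remaining 4 motifs were each in 1.73% to 5.45% of the windows. A match says that the letters are there and not that a factor binds.

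CCAAT rose steeply with the strength of WDR5. Among regions in the low, middle and high tercile of WDR5 fold enrichment, 24.5% (22 to 27.2), 30.6% (27.9 to 33.5) and 65.5% (62.5 to 68.3) of the windows held CCAAT, and 7.21%, 11.5% and 37.6% held 2 or more. GC content was alike in the 3 terciles, with medians of 63.2%, 65.5% and 62.5%. Counted the other way, the median WDR5 fold enrichment was 4.98 in the 1865 regions with no CCAAT, 6.29 with 1, 9.12 with 2 and 14.6 in the 220 regions with 3 or more. GGGCGGG rose less, from 30.7% through 35.7% to 48%, and the ETS letters from 17.8% to 24.1%, while YY1 letters were in 4.33%, 4.81% and 4.71% and STAT letters in 3.94%, 5.39% and 4.33%. The same order was present in the class with RING1B, where the terciles held CCAAT in 13.7%, 17.5% and 51.2% of the windows, and at all WDR5 peaks (17.5%, 21.9% and 52.1%). The order was therefore not particular to the regions without RING1B.

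**Figure D1:**
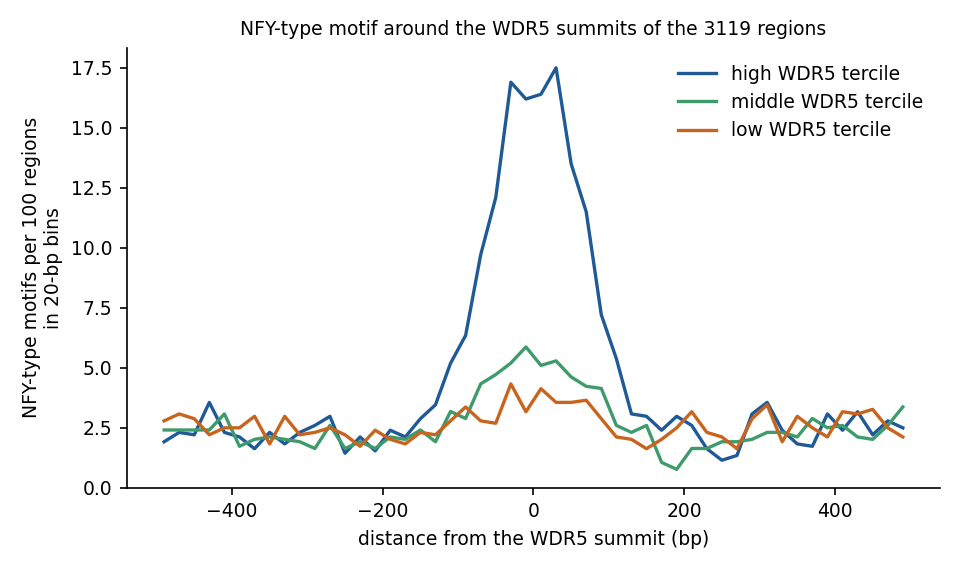
Number of CCAAT (NFY-type) motifs per 100 regions in 20-bp bins (y axis) against distance from the WDR5 summit in bp (x axis), for the regions in the high, middle and low tercile of WDR5 fold enrichment. The high tercile peaks at 17.5 motifs per 100 regions close to the summit, the low tercile stays under 5 across the whole window.

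In Rybp-/- cells nearly all regions kept H3K4me3 and H3K27ac. An H3K4me3 peak of the Rybp-/- list overlapped 3098 regions (99.3%), and an H3K27ac peak as many, and 2851 kept all 3 features. All 3 features were part of the choice in Rybp+/+, so a peak could be missing only in Rybp-/-. WDR5 was the feature most often missing: 239 regions (7.66%, 6.78 to 8.65) had no WDR5 peak in Rybp-/-, although that list was the longer one (12946 peaks against 11965). In the class with RING1B 249 of 5837 regions (4.27%, 3.78 to 4.82) had none, so the kept share was lower here (difference in kept share -3.4 percentage points, Newcombe interval -4.5 to -2.36). The 239 were more weakly bound, with a median Rybp+/+ WDR5 fold enrichment of 3.87 against 5.88 where WDR5 was kept. Compared within deciles of WDR5 strength (10 equal groups of the Rybp+/+ WDR5 list), the missing share was 3.2 percentage points higher than with RING1B, and higher in 7 of the 10 deciles. Regions with more CCAAT boxes missed WDR5 less often (10.2% with none, 5.23% with 1, 2.47% with 2, 2.27% with 3 or more), but within the low tercile of WDR5 the shares were 16.5% (12.4 to 21.5) with CCAAT and 18.7% (16.2 to 21.6) without, and these intervals overlap. Applying the rule to the Rybp-/- lists gave 3383 regions, 2846 of which (84.1%) overlapped the 3119 and 537 did not. Of the 3119, 2841 (91.1%) overlapped the 3383 and 278 did not.

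Ranks within each list were compared because the peak heights of separate lists share no scale. The H3K4me3 percentile was lower in Rybp-/- in 62.7% (61 to 64.4) of the 3098 regions with both peaks, by a median of -2.33 percentile points. The lists differ in length, which moves every percentile: H3K4me3 had 39050 peaks in Rybp+/+ and 38013 in Rybp-/-, H3K27ac 57642 and 62669, and WDR5 11965 and 12946. With both H3K4me3 lists trimmed to the strongest 38013 peaks the share was 60.6% (58.9 to 62.3) with a median of -1.77 points, and ranked only among peaks found in both genotypes it was 59.2% and -1.59 points. With the full lists the shares were 54% (52.8 to 55.3) in the class with RING1B and 52.9% over all peaks found in both lists, and with the trimmed lists 52.5% and 49.5%. Since the strongest peaks can hardly gain rank, the comparison was repeated within deciles of the Rybp+/+ signal. In the 6th to 9th decile, 75.2%, 67.5%, 54.2% and 54.9% of the regions ranked lower, against 42.6%, 42.7%, 38.3% and 45.6% with RING1B, and in the 10th 73.3% against 68.8%. With the trimmed lists the shares in the 6th to 9th decile were 72.6%, 60.3%, 50.6% and 53.1%, against 38.9%, 35.8%, 35.5% and 44.2%. With the full lists, active peaks with neither WDR5 nor RING1B ranked lower still more often, in 74.2% to 85.3% of the peaks of each of these deciles. With the trimmed lists their share in the 6th decile was 70.6%, below the 72.6% of the regions. In the 7th to 10th it was 75.5%, 70.4%, 73.7% and 83.8%, above the regions. Ranked only among peaks found in both genotypes, without deciles, it was 55.7% against 59.2% of the regions. In H3K27ac and WDR5, 45.3% and 42% of the regions ranked lower in Rybp-/-, against 45.5% and 47.9% with RING1B, but with lists trimmed to equal length the shares were 51.6% and 46.9%, against 51.1% and 52.1%.

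**Figure D2:**
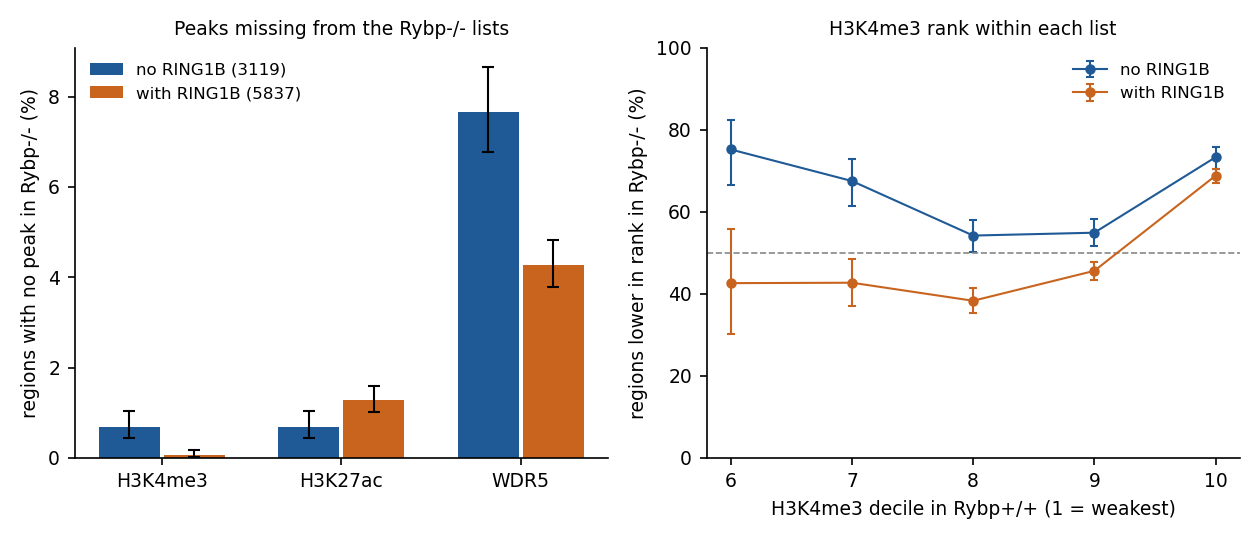
Left, share of regions (%) without an H3K4me3, H3K27ac or WDR5 peak in Rybp-/- for the 3119 regions without RING1B and the 5837 with RING1B. Right, share (%) with a lower H3K4me3 percentile in Rybp-/-, by decile of H3K4me3 fold enrichment in Rybp+/+ (deciles with at least 20 regions; the dashed line is 50%); bars are 95% Wilson intervals, and the regions without RING1B lie above the others for WDR5 and in the 6th to 10th decile.

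The rule used the shEV list of RING1B peaks, and the other lists covered different shares of the regions. RING1B peaks of shStat3 covered 559 of the regions (17.9%) and those of DOX+ 567 (18.2%), but those of the DOX- list, which is the longest with 17021 peaks, covered 1744 (55.9%, 54.2 to 57.6). No RING1B peak of any of the 4 lists lay in 1304 regions, and 256 had one in all 3 other lists. RING1B was weak where it was called: in DOX- its median fold enrichment was 3.98 at these regions and 6.13 in the class with RING1B (percentiles of that list 27.7 and 58.4). The set therefore holds regions with weak or no called RING1B, depending on the list. With the stricter rule of no RING1B in the shEV, shStat3 and DOX- lists, 1324 regions remained, of which 87.2% kept WDR5 in Rybp-/- and 69.8% ranked lower in H3K4me3.

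STAT3, the transcription factor that carries the LIF signal in ESCs, was rare at these regions without induction. Its peaks covered 214 (6.86%, 6.03 to 7.8) in Rybp+/+ and 162 (5.19%, 4.47 to 6.03) in Rybp-/-, with 60 in common, so that most were called in 1 of the single libraries. The class with RING1B was covered more often (14.7% and 13.1%). In Tet.Rybp.Stat3 cells 262 regions (8.4%) had STAT3 in DOX- and 2035 (65.2%) in DOX+, while the list itself grew from 2816 to 30663 peaks. In DOX- and DOX+ the shares were 20.8% and 96.3% in the class with RING1B, and 5.09% and 48% of all H3K4me3 peaks. In the DOX+ list STAT3 at these regions was weaker than with RING1B, with a median fold enrichment of 4.19 against 5.32. Only 7.25% of the DOX+ STAT3 peaks lay on these regions.

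The 350 regions beyond 2.5 kb of a TSS had weaker marks and more CCAAT at WDR5 summits. Their H3K4me3 was narrow (median 1524 bp against 2688) and low (12.2 against 39.8), yet 59.7% (54.5 to 64.7) held CCAAT at the WDR5 summit against 37.7% (36 to 39.6) near TSSs. WDR5 was missing in Rybp-/- in 22.3% of them and in 5.81% of the others. The strongest WDR5 sites of this group, in the Igf1r intron and near Dennd4b, were kept (fold enrichment 35 and 38.7, and 30.1 and 23.2, in Rybp+/+ and Rybp-/-). The widest regions were not those with the strongest WDR5: the first, shared by the start sites of Jmjd1c and Reep3 (chr10:66557347-66569842, 12496 bp), had a WDR5 fold enrichment of 6.33, and that of Src (10790 bp), the tyrosine kinase proto-oncogene, 4.03.

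The regions held TSSs of 3339 genes, 2980 of them protein coding, which is 13.3% of the 22380 annotated protein-coding genes. These were well-expressed genes: the median level in Rybp+/+ was 12.4 CPM per kilobase of exon (percentile 72.9 of the genes tested), against 8.16 for genes starting in regions with RING1B and 3.49 for all. Beside these 13.3%, regions with RING1B held 27.2% of the protein-coding genes. The regions without RING1B held the starts of 46 of 83 cytosolic ribosomal protein genes (55.4%), 13 of 20 cytosolic aminoacyl-tRNA synthetases (65%), 17 of 31 mediator subunits, 20 of 37 subunits of respiratory complex I, 15 of 32 DNA replication genes, 19 of 41 proteasome subunits and 33 of 76 mitochondrial ribosomal proteins. They held 16 of 59 translation initiation factors (27.1%) and 22 of 61 spliceosome proteins (36.1%), of which regions with RING1B held 28 and 35. Of the chromatin regulators, 6 of 26 Polycomb subunits (23.1%) and 6 of 17 WDR5 and COMPASS subunits (35.3%) started here and 17 and 11 in regions with RING1B. Of 19 pluripotency factors 3 were here (Esrrb, Klf4 and Zfp42) and 9 in regions with RING1B, and none of the 31 developmental transcription factors listed started in these regions.

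Ribosomal protein genes starting in these regions fell into 2 sets by WDR5, and the sets moved mostly in opposite directions when Wdr5 was knocked down. WDR5 fold enrichment was 21.6 to 64 at 30 of them and 2.6 to 6.68 at the other 16, with none between. In shWdr5, 29 of the 30 with strong WDR5 fell and 15 of the 16 with weak WDR5 rose (edgeR's quasi-likelihood test, Benjamini-Hochberg adjusted p under 0.05; of all 15143 genes tested 31.5% rose and 31.5% fell). The median log2 fold change was -0.64 for the first set and 0.43 for the second, while the median of all genes was -0.01. In the strong set 1 gene rose, and in the weak set 1 fell, Rpl22l1 (WDR5 of 5.57), by 0.96. The split was seen and made after the values were known, and the counts were the same under each of the other scalings, filters and tests and without any 1 library. The class with RING1B held 24 further ribosomal protein genes, with a gap in WDR5 between 10.7 and 18.8: of 14 above it 13 fell and 1 (Rplp0) rose, and of 10 below it 8 rose and 0 fell. The other 13 of the 83 started in neither class and had no WDR5 value. They went both ways: Rpl37a (-1.28) and Rpl15 (-0.69) fell, for example, and Rps21 (0.85) and Rps29 (0.76) rose. Over the whole list 50 fell and 31 rose.

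**Figure D3:**
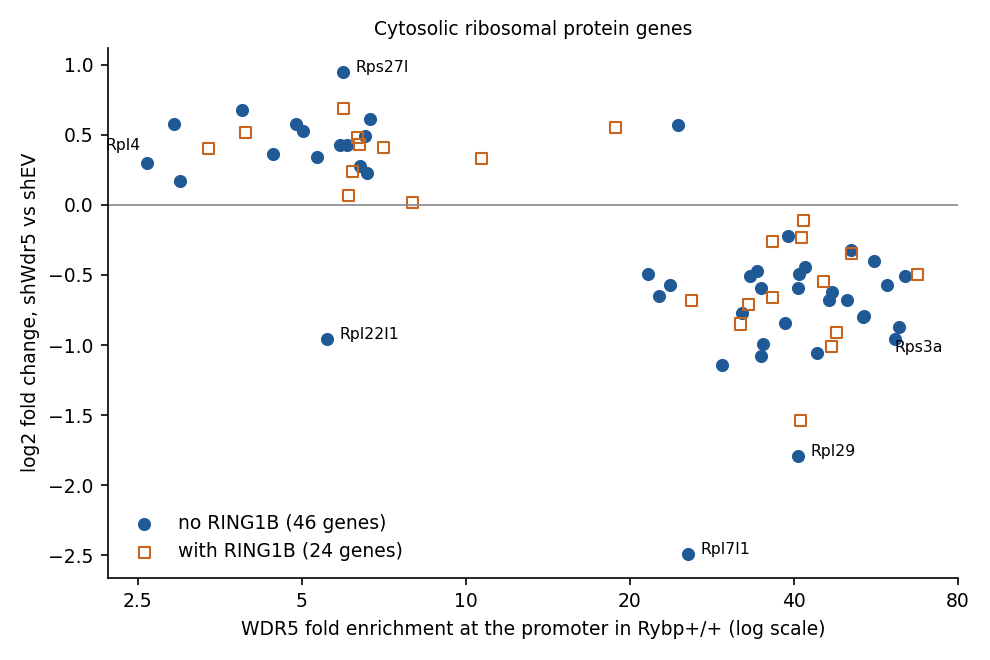
Log2 fold change in shWdr5 against shEV (y axis) and WDR5 fold enrichment in Rybp+/+ at the promoter (x axis, log scale) of 46 ribosomal protein genes starting in the regions without RING1B (filled) and 24 starting in regions with RING1B (open). Genes with WDR5 above 20 lie below 0 except 1, and genes with WDR5 under 7 lie above 0 except Rpl22l1.

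Single libraries show the size of these changes. Rps3a, of the small ribosomal subunit, had WDR5 of 62.4 and 334 and 313 CPM in shEV against 174 and 179 in shWdr5 (log2 fold change -0.87). Rpl13, of the large subunit, had WDR5 of 61.3 and fell by 0.96. The largest falls were those of Rpl7l1, a paralog of Rpl7 (291 and 288 to 51.5 and 51.3 CPM, -2.49), and Rpl29 (149 and 148 to 42.7 and 43.5 CPM, -1.79). In each of these genes both shWdr5 libraries lay below both shEV libraries. Rpl4, with the weakest WDR5 (2.6), rose by 0.30 and Rps28 (2.92) by 0.58. Rps27l, a ribosomal protein paralog known as a p53 target, rose by 0.95. Ribosomal protein genes have many near-identical pseudogene copies, which makes their counts uncertain.

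After loss of RYBP these 46 genes gave other counts. In Rybp-/- 3 of the 30 strong-WDR5 genes fell and 2 rose, and 4 of the 16 others fell and 2 rose (of all genes 22.7% fell and 22.8% rose). These counts are unstable: in the strong set 8 fell and 6 rose without Rybp+/+ replicate 1, 8 and 5 without Rybp+/+ replicate 2, 5 and 2 without Rybp-/- replicate 1, 0 and 1 without Rybp-/- replicate 2, and 1 and 8 among genes of at least 10 CPM on average. In the weak set leaving out 1 library gave 1 to 5 falls and 1 to 5 rises. In shRybp, which shares its controls with shWdr5, 25 of the 30 and 10 of the 16 fell, with medians of -0.23 and -0.15 (of all genes 26% fell and 26.8% rose). With scaling by total counts alone, 11 fell and 3 rose of the 30 (median -0.07) and 4 fell and 5 rose of the 16 (median 0.00) in shRybp, where 15.1% of all genes fell, so the fall of the weak set depends on the scaling. Their WDR5 was kept in Rybp-/-, with a median of 40.7 in Rybp+/+ and 36 in Rybp-/- for the strong set and 5.45 and 5.92 for the weak set. The sets were alike in H3K4me3 (median fold enrichment 49.5 and 53.3), H3K27ac (34.6 and 39.8) and RNA level in shEV (586 and 615 CPM per kilobase). CCAAT was rare in the strong set, at 3 of 30, and at 5 of 16 in the weak set, so that strong WDR5 at ribosomal protein genes did not go with this motif. ETS letters were at 0 of 30 and 3 of 16.

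Calls in shWdr5 were also counted by WDR5 strength outside the ribosomal proteins, without a test of the difference. Of 208 other genes here with WDR5 of 20 or more, 88 (42.3%) fell and 54 (26%) rose, and of 1098 with WDR5 under 5, 404 (36.8%) fell and 321 (29.2%) rose. With WDR5 of 5 to 10, 33.6% fell, and with 10 to 20, 35.6%, so the share did not rise steadily with WDR5. In the class with RING1B 34.7% fell at 20 or more and 33% under 5. Over all 3022 genes of these regions tested, 1091 (36.1%) fell and 878 (29.1%) rose. Genes in regions without RING1B in DOX- fell more often (467 of 1105, 42.3%) than those with it (624 of 1917, 32.6%). The largest falls outside the ribosomal proteins included Miip (15.3 and 14.3 to 3.5 and 3.55 CPM, log2 fold change -2.07, adjusted p = 8.7e-12), Bcl3, an IκB-family transcriptional coregulator (145 and 166 to 37.9 and 42.3, -1.95), Cabp1 (-2.05), Zfp111 (-1.78), Dhrs4 (-1.64), Dctn3 (-1.63), Acer2 (-1.62) and Eef1g, a subunit of the translation elongation factor eEF1 (1435 and 1387 to 474 and 459, -1.60, adjusted p = 3.1e-19). In these genes the libraries of the groups did not overlap, which was part of how they were named. Trp53inp1, a stress-induced p53 target, rose from 148 and 137 to 868 and 807 CPM (log2 fold change 2.55, adjusted p = 4.7e-21), Ccng1, a cyclin, from 215 and 196 to 723 and 688 (1.78), and Rb1, the retinoblastoma gene, from 10.2 and 11 to 59.3 and 53.8 (2.41). The largest rises also held 1700003M07Rik (3.24), Pm20d1 (2.74), Hyal1 (2.74), 1700007K13Rik (2.73), Lpar6 (2.66), Pnkd (2.02) and Agpat4 (1.88). Of these 10, 3 (1700003M07Rik, Hyal1 and Lpar6) had less than 5 CPM in shEV. Rb1 and Lpar6 start in the same region, and Rb1, Cabp1, Bcl3, Acer2, Hyal1 and Pnkd also have a TSS in another class of H3K4me3 peak. In shWdr5 summed primitive endoderm markers went from 10.3 to 13.7 CPM to 34.2 to 34.9, two-cell-like markers from 28.5 to 30.1 to 10.8 to 11.7 and ESC markers from 6295 to 6437 to 5444 to 5470, and their part in the result was not tested.

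After deletion of Rybp few genes of these regions changed by more than 2-fold. Of 3102 tested in Rybp-/-, 866 (27.9%) fell and 612 (19.7%) rose (of all genes 22.7% fell and 22.8% rose, and of genes starting in regions with RING1B 33.4% and 20.2%). Of these calls 13 falls (0.419% of genes tested) and 10 rises (0.322%) exceeded 2-fold, against 211 (1.24%) and 1119 (6.6%) over all genes and 39 (0.627%) and 66 (1.06%) with RING1B. The balance depends on the setting. With total counts as the scaling 747 fell and 757 rose, and the share that fell, 24.1%, was again above that of all genes, 20.2%. Among genes of at least 10 CPM on average 663 (26.1%) fell and 803 (31.6%) rose, where 30% and 30.3% of all genes did, so that the share of falls was then below that of all genes. Genes named here and in the next comparisons had at least 5 CPM on average in 1 of the groups and libraries that did not overlap, so larger fold changes of rarer RNAs are left out. Within these limits Polr3gl, a subunit of RNA polymerase III, fell the most, from 8.66 and 10 to 3.71 and 4.56 CPM (log2 fold change -1.18 ± 0.12 SE, adjusted p = 1.4e-09). Further large falls were 4833442J19Rik (-1.16), 2610037D02Rik (-1.0), Wasf3, an actin regulator (89.8 and 88 to 49.2 and 52.2 CPM, -0.81 ± 0.04), Slc37a4 (-0.81), Ccdc15 (-0.80), 2810408A11Rik (-0.80), Tmem38a (-0.79), Stk36 (-0.79) and Neu1, a lysosomal sialidase (33.3 and 34.1 to 19.3 and 20.1, -0.78 ± 0.06). 2610037D02Rik also has a TSS in another class of H3K4me3 peak. The largest rises within these limits were Nppb, which encodes a natriuretic peptide (2 and 1.23 to 4.74 and 6 CPM, 1.74 ± 0.19), AC027184.1 (0.98), Myadm (0.74 ± 0.04), Cyb561d2 (0.73), Jam2 (0.70), Sparc, a matrix glycoprotein (126 and 122 to 202 and 199, 0.69 ± 0.04), 1700007K13Rik (0.67), Sphk2 (0.65), Josd2 (0.65) and Gas8 (0.65). Sparc is also abundant in fibroblasts, whose summed markers were higher in Rybp-/-, as were those of primitive endoderm (7.81 to 9.06 CPM in Rybp+/+ and 15.4 to 16.7 in Rybp-/-). Genes whose region missed WDR5 in Rybp-/- fell in 40 of 146 (27.4%) and those that kept it in 826 of 2956 (27.9%), a difference that was not tested.

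In shRybp the fall was broader. Of 3071 genes tested, 1272 (41.4%) fell and 441 (14.4%) rose, whereas over all genes 26% fell and 26.8% rose. The median log2 fold change was -0.13 against 0.02 over all genes. The direction depends on the scaling: 74.3% of the calls were falls with edgeR's TMM factors and 45.3% with total counts alone (699 lower and 845 higher; over all genes 49.2% and 28.8%), where the median of all genes moved to 0.18, but the median of these genes lay 0.14 below that of all genes with either. Among genes of at least 10 CPM on average the shares were closer, with 35.2% of these genes and 31.1% of all genes lower. The share of falls was 37% in the low, 41.2% in the middle and 45.3% in the high tercile of WDR5, and 47.2% of 983 genes in SEs against 38.7% of 2088 outside. Among genes with at least 5 CPM in 1 group, Rpl10 had the largest fall (948 and 918 to 254 and 235 CPM, log2 fold change -1.93 ± 0.05), but it has near-identical copies and its counts are uncertain. Polr3gl fell here too (13.2 and 12 to 3.86 and 4.48 CPM, -1.60). Kinases of the MEK and ERK cascade, Map2k1 (131 and 127 to 47.3 and 46.4, -1.46 ± 0.05, adjusted p = 2.1e-13) and Mapk3 (71.3 and 77.9 to 26.8 and 26.5, -1.48 ± 0.07, adjusted p = 2.4e-12), were among the largest falls, as were the cell cycle factor E2f2 (-1.47), Rmnd5b (-1.31), Rpl22l1 (-1.29), Chchd10 (-1.21), Sc4mol (-1.19) and Zbtb8a (-1.17). Txnip, an inhibitor of thioredoxin, rose from 162 and 155 to 481 and 476 CPM (1.59 ± 0.05) and Sparc from 154 and 141 to 413 and 430 (1.51 ± 0.05). Lpar6 (1.81), Hyal1 (1.77), Mbnl2 (1.59), Pm20d1 (1.58), Ssh3 (1.34), Pfkfb4 (1.34), Pik3r3 (1.31) and Ak1 (1.28) made up the rest of the largest rises above that limit, which leaves out, among others, Nppb and 1700003M07Rik, whose fitted fold changes were larger at low levels. Hyal1, E2f2 and Ak1 also have a TSS in another class of H3K4me3 peak. Marker sums moved in shRybp as well: from 30.7 to 32.8 CPM in shEV to 131 to 137 for two-cell-like markers (3 of 5 tested), from 10.1 to 13.9 to 25.8 to 29.3 for primitive endoderm (6 of 6) and from 18.6 to 18.8 to 30.6 to 31.8 for embryonic fibroblasts (3 of 7). Summed ESC markers went from 6695 to 6845 CPM to 6063 to 6088. Their part in the result was not tested.

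The calls of the deletion and of the knockdown can be set side by side. Of 3054 genes tested in both, 425 fell in both and 124 rose in both, while 240 rose in Rybp-/- and fell in shRybp and 118 did the reverse. These are 13.9%, 4.06%, 7.86% and 3.86% of the genes, where the shares over all 15747 genes tested in both were 9.74%, 10.8%, 4.95% and 4.64%. These comparisons share no samples and differ in cell line, and they were not tested against each other. Wdr5 itself fell in shRybp (372 and 364 to 265 and 260 CPM, log2 fold change -0.49 ± 0.04, edgeR adjusted p = 2.7e-08) and slightly in Rybp-/- (245 and 253 to 225 and 226, -0.14 ± 0.03).

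**Figure D4:**
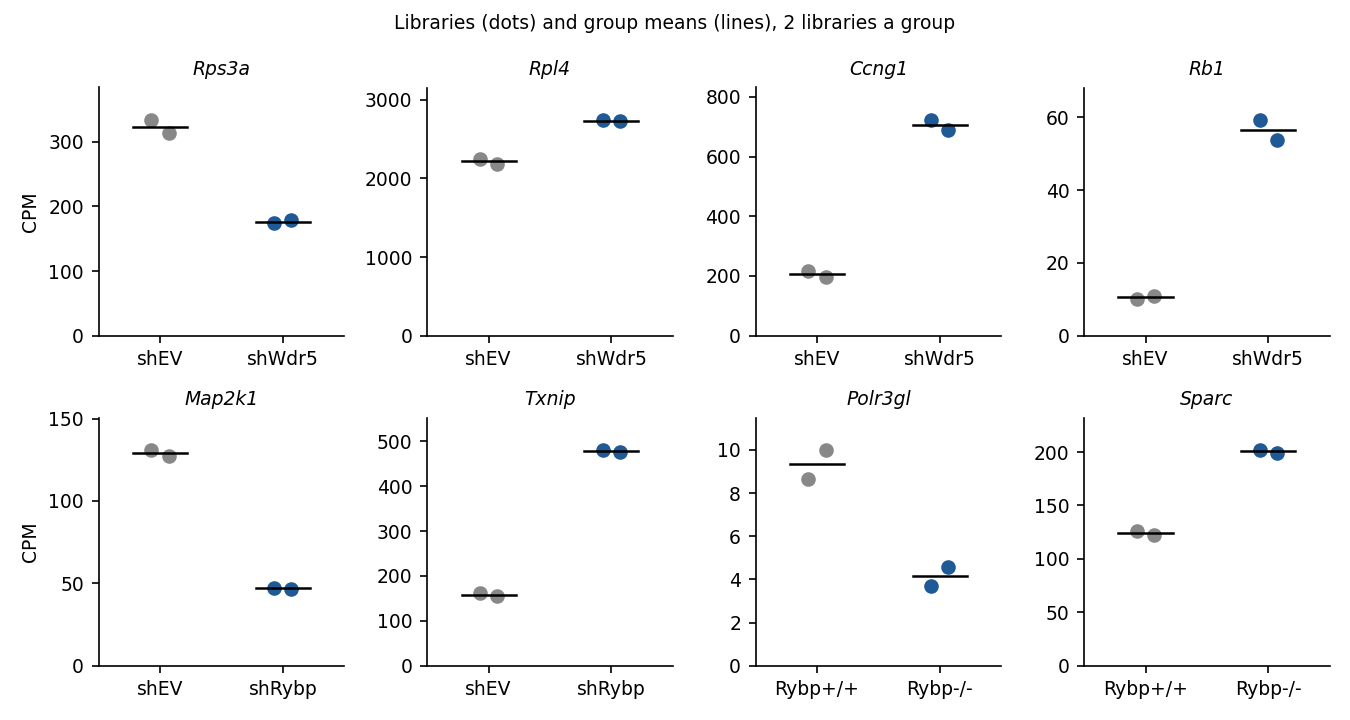
CPM (y axis) of 8 genes of these regions in the single libraries (dots) of the control and treated group, with group means as lines. Rps3a falls and Rpl4 rises in shWdr5, and in all 8 panels the 2 libraries of a group lie apart from those of the other.

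The remaining 4 comparisons are given beside the shares over all genes. In TF-AA mutation 455 (15.1%) fell and 250 (8.32%) rose of 3005, against 16.1% and 14.4% of all genes. In RYBP phase disruption 501 (16.9%) fell and 332 (11.2%) rose of 2966, against 17% and 16.1%. In Tet.RYBP 41 (1.34%) fell and 99 (3.25%) rose of 3049 with doxycycline, against 2.39% and 3.63%. In rTRS DOX 770 (25.1%) fell and 519 (16.9%) rose of 3064, against 20.4% and 23%. Rises were thus below the share of all genes in each of these 4, though only slightly in Tet.RYBP, and falls were above it in rTRS DOX. Such shares can depend on expression level. When only more abundant genes were counted, rises in Rybp-/- were 31.6% here against 30.3% of all genes, instead of 19.7% against 22.8%. In shRybp they stayed below, with 23.4% against 32.4%. Shares among more abundant genes are not given for these 4 comparisons, and the part of expression level was not tested. The balance of calls depends on the scaling in 3 of them: falls were 64.5% of the calls in TF-AA mutation and 51.9% with total counts, 60.1% and 39% in RYBP phase disruption, and 29.3% and 42.4% in Tet.RYBP. The calls over all genes shifted the same way, from 52.7% to 45.2%, from 51.3% to 38.3% and from 39.7% to 48.1%. Several counts also depend on 1 library. Without TF-AA mutation replicate 1, 266 fell and 101 rose, and without its replicate 2, 274 and 89. Without WT.RYBP replicate 1 189 rose, and without replicate 2 329 fell and 191 rose. In Tet.RYBP, 15 fell and 26 rose without DOX replicate 1, 9 and 34 without DOX replicate 2, 118 and 231 without vehicle replicate 1, and 110 and 204 without vehicle replicate 2.

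**Figure D5:**
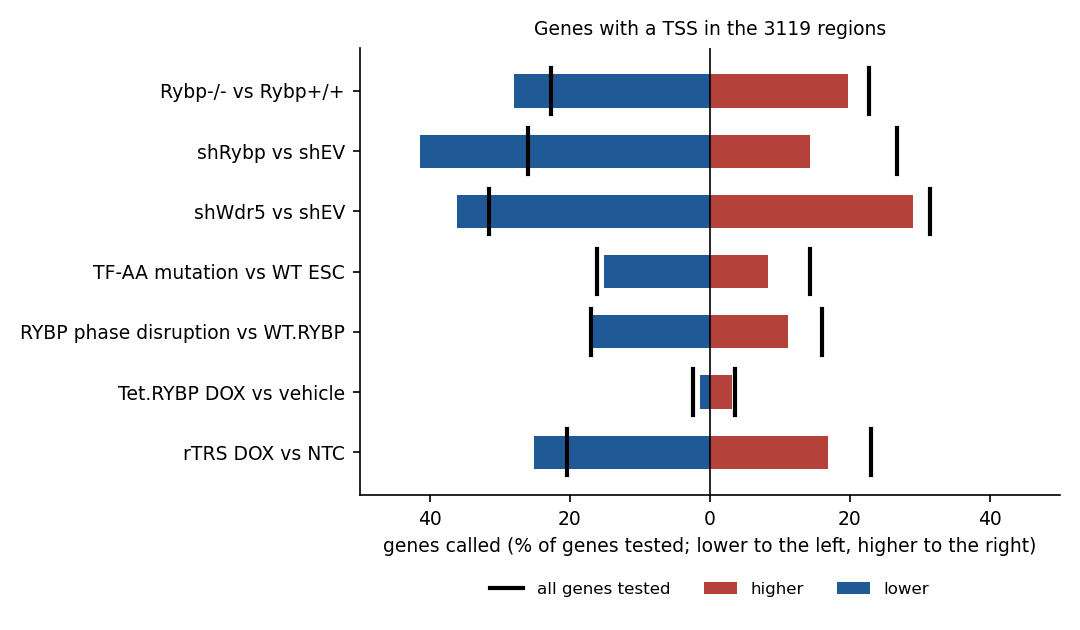
Share (%) of the genes starting in the 3119 regions called lower (left of 0) or higher (right of 0) in each of the 7 RNA comparisons, with black lines for the share over all genes tested. In shRybp 41.4% were lower against 26% of all genes.

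Single genes stood out in these comparisons. Polr3gl fell in TF-AA mutation as well (13.4 and 15.8 to 4.87 and 4.48 CPM, log2 fold change -1.64 ± 0.17, edgeR adjusted p = 5.4e-08). Aim2, a sensor of cytosolic DNA, fell in TF-AA mutation (8.07 and 7.66 to 2.83 and 2.78, -1.49 ± 0.20) and rose with Tet.RYBP doxycycline (4.4 and 4.14 to 13.3 and 9.67, 1.42 ± 0.19). In RYBP phase disruption Adam23 (-1.20), Zbtb8a (-1.11) and Rbl2 (-1.04) fell and Ttc30b (1.36), Idua (1.26), which also has a TSS in another class of H3K4me3 peak, and Zfp839 (1.25) rose. In rTRS DOX Tet2, a DNA demethylase, fell from 82.8 and 94.7 to 21.8 and 23 CPM (-1.99 ± 0.09), and the imprinted gene Peg3 rose from 56.5 and 61.9 to 220 and 228 (1.92 ± 0.07), while summed ESC markers went from 4477 to 4709 CPM to 2883 to 3072 and those of primitive endoderm from 6.83 to 8.53 to 20.7 to 21.3. Two-cell-like markers went from 0.0988 to 0.669 CPM to 32.3 to 33.1 in TF-AA mutation and from 32.2 to 34.7 to 298 to 306 in RYBP phase disruption. Embryonic fibroblast markers went from 11 to 11.7 CPM to 24 to 24.7 in TF-AA mutation (3 of 7 tested) and from 424 to 431 to 343 to 367 in RYBP phase disruption (7 of 7). The part of these markers in the results was not tested.

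Calls were also counted over lists of genes with a shared task, first for the list genes that start in these regions. The cytosolic aminoacyl-tRNA synthetases, which charge tRNAs, fell in 13 of 13 genes in shRybp (median log2 fold change -0.46, all genes 0.02; 12 with total-count scaling), in 10 of 13 in shWdr5 with 2 rises, in 7 of 13 in Rybp-/- with no rise, and in 12 of 13 in rTRS DOX. Of all genes tested 26% fell in shRybp, 31.5% in shWdr5, 22.7% in Rybp-/- and 20.4% in rTRS DOX, and 22.8% rose in Rybp-/-, which holds for the lists that follow too. Nars, for asparagine, had 351 and 350 CPM in shEV and 214 and 218 in shRybp (log2 fold change -0.70 ± 0.04), and Aars, for alanine, 1255 and 1355 against 874 and 871 (-0.58 ± 0.04). In Tet.RYBP with doxycycline 4 of the 13 rose and none fell (median 0.10, all genes 0.00, of which 3.63% rose). DNA replication genes fell in 14 of 15 in shRybp (median -0.40; 11 with total counts) and in 8 of 15 in Rybp-/- (median -0.14, all genes 0.00), with no rise in either. Mcm2, of the replicative helicase, went from 854 and 876 to 568 and 558 CPM in shRybp (-0.62 ± 0.04) and from 678 and 666 to 597 and 592 in Rybp-/- (-0.18 ± 0.03). Of the proteasome subunits 10 of 19 rose and 1 fell in Rybp-/- (median 0.09), and 16 of 19 fell in shRybp (median -0.28) or 9 with total counts; the difference was not tested. All 3 pluripotency factors of the set rose in Rybp-/-, of which Klf4 went from 276 and 287 to 380 and 375 CPM (0.42 ± 0.03). In shRybp 1 of the 3 rose and 2 fell (median -0.38), and in shWdr5 too 1 rose and 2 fell (median -0.41). In rTRS DOX all 3 fell, Zfp42 from 881 and 897 to 271 and 282 CPM (-1.68 ± 0.06). Of the whole list of 19, 10 rose and 4 fell in Rybp-/-, 5 rose and 9 fell in shRybp, and 2 rose and 14 fell in rTRS DOX. The 6 Polycomb subunits went both ways, with 2 higher and 3 lower in Rybp-/- and in shRybp alike. Phc1 fell in Rybp-/- (654 and 662 to 488 and 481 CPM, -0.44 ± 0.03) and in shRybp (522 and 531 to 392 and 395, -0.42 ± 0.04). Mtf2, of PRC2, rose in both (0.27 and 0.21), and Eed, of PRC2, rose in Rybp-/- (284 and 276 to 308 and 303, 0.13 ± 0.03) and fell in shRybp (310 and 294 to 199 and 189, -0.64 ± 0.05). Over the whole lists, 20 of 20 synthetases fell in shRybp, 13 of 20 in Rybp-/- and 18 of 20 in rTRS DOX. DNA replication genes fell in 31 of 32 in shRybp and in 19 of 32 in Rybp-/-. Of 37 proteasome subunits 19 rose and 3 fell in Rybp-/-, and 30 fell in shRybp. The movement of these 3 lists was thus not particular to the genes of these regions. These adjusted calls come from edgeR's quasi-likelihood test, and the counts are a description of lists chosen with earlier results known.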

How the data were processed

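The deposited peak lists held fold enrichment over input and -log10 q values that the authors made with Bowtie2 alignment to mm9 and MACS2, as narrow peaks for histone marks, WDR5 and STAT3 and broad peaks for RING1B. The deposited gene tables held raw counts per Ensembl gene, made by the authors with Trim Galore, STAR and HTSeq according to the submitters' processing notes, and rows naming no gene (13.7% to 58.5% of counts in 6 tables) were left out of library sizes. Peaks were compared by overlap of at least 1 bp with Python 3.11.15, pandas 2.3.3 and numpy 2.4.6, sequences were read with pysam 0.24.0 from mm9, and gene starts from its annotation. Shares carry 95% Wilson intervals and their differences Newcombe intervals. SEs were H3K27ac peaks stitched over 12.5 kb and cut where the ranked signal curve reaches a slope of 1. Genes kept by edgeR's expression filter were tested with the quasi-likelihood test of edgeR 4.0.16 (R 4.3.3) with TMM factors, over all genes and with the groups of 1 table only, and called at a Benjamini-Hochberg adjusted p under 0.05. CPM are per library; CPM per kilobase divide them by the summed exon length. In each comparison the named genes were the 10 largest falls and rises (3 in the last 4 comparisons) among called genes with at least 5 CPM in 1 group and no overlap of libraries, and examples from lists were taken from their most abundant genes or chosen after their values were seen. The fit was tested on simulated data and recovered 68% to 85% of 200 changed genes over the 7 comparisons. Alternatives were other scalings, filters, DESeq2 1.42.0, a block for the replicate number, each library left out, and other overlaps, q limits, RING1B rules and windows. The regions, gene lists and motifs were chosen with earlier results of these data known. The values of 1 gene that counts include are not reported here.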

Additional observations from a re-analysis of the deposited data

Results flagged for a closer look

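Among the genes named in the comparisons of Rybp-/- with Rybp+/+ and of shRybp with shEV, 10 were called in opposite directions by edgeR, with every library of one comparison moving one way and every library of the other the opposite way. The difference itself was not tested, and the comparisons differ in cell line. Txnip fell by 0.31 on the log2 scale in Rybp-/- (-0.31) and rose by 1.59 in shRybp, Mbnl2 had -0.16 and 1.59, and Pik3r3, a regulatory subunit of PI3-kinase, had -0.42 and 1.31. 2610037D02Rik had -1.0 and 1.04, Slc37a4 had -0.81 and 0.35, and Stk36 had -0.79 and 0.35. The reverse order was seen for AC027184.1 with 0.98 in Rybp-/- and -0.73 in shRybp, for the junction protein Jam2 with 0.70 and -0.39, for the sphingosine kinase Sphk2 with 0.65 and -0.15, and for Gas8 with 0.65 and -0.35. The opposite calls depend on the setting for 5 of them. With total counts as the scaling Sphk2 had 0.00 in shRybp (edgeR adjusted p = 0.96), Gas8 -0.19 (0.11), and Mbnl2 -0.13 in Rybp-/- (0.054). Slc37a4 in shRybp lost its call with RLE factors, DESeq2 or no expression filter, Stk36 in shRybp with DESeq2, Mbnl2 in Rybp-/- also with DESeq2 and among genes of at least 10 CPM on average, and Sphk2 in shRybp also among the latter.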

How the results depend on the processing

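Of the values that answer a comparison, 212 stayed within 1 interval or 1.5 times and 49 moved; of 806 values of named genes, each in the comparison it was named in, none reversed and 5 lost the threshold (Zkscan14, Ndrg4 and Rnf135 in Tet.RYBP). With at least 200 bp of overlap 99.8% of the regions kept H3K4me3, and 91.3% kept WDR5 where the Rybp-/- peak had to overlap by as much. With peaks of -log10 q of at least 5 only, 99.9% kept H3K4me3 and 96.2% WDR5, 45.7% ranked lower in WDR5, and 59.5% had RING1B in DOX- and 67.6% STAT3 in DOX+. With no RING1B in the shEV, shStat3 and DOX- lists there were 1324 regions: 98.4% kept H3K4me3, 98.9% H3K27ac and 87.2% WDR5, 69.8% ranked lower in H3K4me3 and 36.7% in WDR5, 1.51% had RING1B in DOX+, and STAT3 was at 2.19% in Rybp+/+, 1.28% in Rybp-/-, 1.59% in DOX- and 42.4% in DOX+. A TSS lay within 1 kb of 87.5%. With total counts as the scaling 845 genes rose and 699 fell in shRybp, and 499 and 319 in RYBP phase disruption, where DESeq2 gave 173 and 324 and no expression filter 172 rises. In TF-AA mutation DESeq2 gave 152 rises.

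The replicate numbers of the labels are only shared numbers here: same-numbered libraries deviated with correlations of 0 to 0.15, and 2 pairs cannot settle a pairing. With a replicate block 412 genes rose in TF-AA mutation and 73 fell in Tet.RYBP, while the counts were 612 rises and 864 falls in Rybp-/-, 474 and 1313 in shRybp, and 913 and 1138 in shWdr5. Leaving out 1 library at a time gave 452 to 557 rises and 665 to 828 falls in Rybp-/-, 322 to 409 and 1053 to 1258 in shRybp, 763 to 828 and 938 to 1058 in shWdr5, 89 to 326 and 266 to 513 in TF-AA mutation, 189 to 265 and 329 to 440 in RYBP phase disruption, 26 to 231 and 9 to 118 in Tet.RYBP, and 426 to 524 and 633 to 689 in rTRS DOX; the lone library is then assumed to vary like the other group. A setting chosen after seeing the data, counting only genes with no TSS in another class of H3K4me3 peak, gave 552 rises and 758 falls in Rybp-/-, 364 and 1175 in shRybp and 775 and 1000 in shWdr5. With H3K4me3, H3K27ac and WDR5 lists trimmed to equal length, also chosen after seeing the data, 60.6%, 51.6% and 46.9% of the regions ranked lower in Rybp-/-, and among peaks found in both genotypes 59.2% in H3K4me3 and 46.9% in WDR5. The depth of the peak libraries is not given in the lists, so a missing peak may lie just under the calling limit, and 1 list per genotype leaves no replicate check.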
